A study of Mus musculus with 22 samples.

Results

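The DNA replication machinery is the set of proteins that license replication origins, unwind and copy the DNA, and supply the deoxynucleotides for it. Its members here are the genes of the count table whose name equals one of 47 listed symbols, and all 47 were found among the 34489 genes counted. They were grouped into 8 roles: 6 origin recognition genes, 3 licensing factors, 6 genes of the MCM2-7 helicase core, 8 for origin firing and assembly of the CMG helicase (Cdc45, MCM2-7 and GINS), 9 for polymerases and primase, 6 for the sliding clamp and its loader, 5 for RPA and the lagging strand, and 4 for nucleotide supply. In G1 the origin recognition complex, Cdc6 and Cdt1 load MCM2-7 rings onto origins, and geminin (Gmnn) binds Cdt1 once S phase has begun so that an origin is not licensed again. In S phase the kinase Cdc7 with its activator Dbf4, together with Mcm10, Cdc45 and GINS, turns the loaded rings into active helicases, and polymerases held to the template by the Pcna clamp copy both strands. Many of these genes are known targets of the E2F transcription factors, and mouse pluripotent stem cells are known for a cell cycle with a short G1 phase and a large share of cells in S phase.

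The study asked whether activators of AMP-activated protein kinase (AMPK) bring cells of the primed pluripotent state, mouse epiblast stem cells (mEpiSCs), back to the naive state of mouse embryonic stem cells (mESCs). RNA from 22 whole, unsorted cultures was read by stranded mRNA sequencing. Oct4GIP mEpiSCs on mouse embryonic fibroblast feeders were transferred to Basal medium, which contains serum replacement and some serum. They were kept there for 8 or 16 days (d8, d16) without further factors, with 2iL, with AICAR, or with AICAR+LIF. Cells reverted with AMPK activators for 16 days were then expanded in 2iL for 2, 3 or 10 passages (d16+2p, d16+3p, d16+10p). 2iL stands for a pair of kinase inhibitors with the cytokine LIF, and AICAR, A769662 and metformin are activators of AMPK. The naive group was 1 library of mESCs of the line Rex1-GFP, in which GFP reports the naive gene Rex1 (Zfp42). The primed group was 1 library of Oct4GIP mEpiSCs grown on fibronectin and 1 of 129/MSM mEpiSCs, derived from a cross of MSM/Ms males with 129X1/SvJ females and grown on feeders, both with FGF2 and activin A. The d16+2p and d16+3p group was 4 Oct4GIP libraries, given in the order AICAR d16+2p, AICAR+LIF d16+2p, AICAR d16+3p and AICAR+LIF d16+3p. The d16+10p group was 7 libraries: Oct4GIP reverted with AICAR, AICAR+LIF, A769662, A769662+LIF or metformin+LIF, and 129/MSM reverted with AICAR or AICAR+LIF. The d8 and d16 groups were 4 Oct4GIP cultures each, given in the order Basal, 2iL, AICAR and AICAR+LIF. The paper lists Oct4GIP and Rex1-GFP as XX and 129/MSM as XY, so the 129/MSM libraries differ from all others in sex as well. Every Oct4GIP library, primed, reverted or in culture, carries the same Oct4-driven eGFPiresPuro transgene, which gives GFP and puromycin resistance to cells that express Oct4.

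Total counts per library were 3189765 in the naive library, 2584715 and 2965743 in the primed libraries, 2678787 to 3404489 at d16+2p and d16+3p, 1689495 to 3380314 at d16+10p, 438771 to 2860985 at d8 and 2686012 to 5290163 at d16. AICAR+LIF d8 had the fewest counts, followed by AICAR d8 with 956357, so values of these 2 libraries carry the largest counting error. No condition was sequenced in more than 1 library. Libraries of the same state but of other treatments, passages or lines stood in as replicates, and p-values therefore measure only the spread between these samples, which may in part be technical. The most alike pair within a group was AICAR d16+2p and AICAR+LIF d16+2p. Their counts differed by 1.39 times the sampling noise (chi-square per degree of freedom). AICAR d8 and AICAR+LIF d8 came next with 1.76, and both count as AICAR libraries in the comparison with and without AICAR. Each of these libraries was kept on its own. All levels are counts per 1000000 counts (CPM), with totals scaled by TMM factors.

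The labelled states were checked against marker genes. Zfp42 (Rex1), a marker of naive cells, was 569 CPM in the naive library and 275 to 698 in the 11 reverted libraries. It had at most 1 count in a primed library, 0 in every d8 culture and at most 2 in a d16 culture. In AICAR+LIF d8, the smallest library, 3 counts are 6.84 CPM, so its 0 is a loose bound. Fgf5, a marker of primed cells, was 33.5 CPM in primed Oct4GIP and 318 in primed 129/MSM, 0 in naive cells, at most 3.04 in reverted cells and at most 5.93 in cultures. Pou5f1 (Oct4), which both pluripotent states express, was 768 CPM in naive cells, 818 and 461 in primed cells and 716 to 1188 in reverted cells. In the cultures it was 1.45, 0.8293, 14.2 and 35.6 at d8 and 0.754, 0.802, 3.74 and 21.5 at d16. The d8 and d16 libraries thus held little RNA of these 3 genes, and they are called cultures here and not primed or naive cells. Other markers differed from this: the 6 primed markers summed to 71.4 to 298 CPM at d16, against 259.7 in primed Oct4GIP and 1064 in primed 129/MSM, and Sox2, shared by both states, was higher in the cultures than in primed cells, by 1.65 ± 0.33 (edgeR adjusted p = 0.000579). A list of 13 fibroblast markers was summed because feeders were present in some samples. The sum was 23.9 CPM in naive cells, 64.01 in primed Oct4GIP, 636 in primed 129/MSM, 107, 113, 24.7 and 20.03 at d16+2p and d16+3p, and 23.03 to 28.2 at d16+10p. In the cultures it was 3380.4, 3473, 3455 and 3014 CPM at d8 and 5699.7, 50468, 17630.0 and 19506 at d16, and Col1a1 had the highest mean level of the list. None of the 13 was at 0 in a culture, while Twist2 was at 0 in the naive and in all 11 reverted libraries. In bulk cultures such as these, fewer cells of a cycling type and less RNA per cell cannot be told apart.

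Together the 47 members gave 7501 CPM in the naive library, 3504 in primed Oct4GIP and 4484 in primed 129/MSM. The sum was 7059, 7273, 8639.9 and 8405 at d16+2p and d16+3p, and 6968 to 8029.7 (median 7612) at d16+10p. It was 2365, 2966, 3124 and 2599 in the d8 cultures and 1398, 1392, 2127 and 1972 in the d16 cultures. Reverted libraries, primed libraries, d8 cultures and d16 cultures formed 4 steps that did not overlap, and the naive library lay within the range of the reverted ones.

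**Figure D1:**
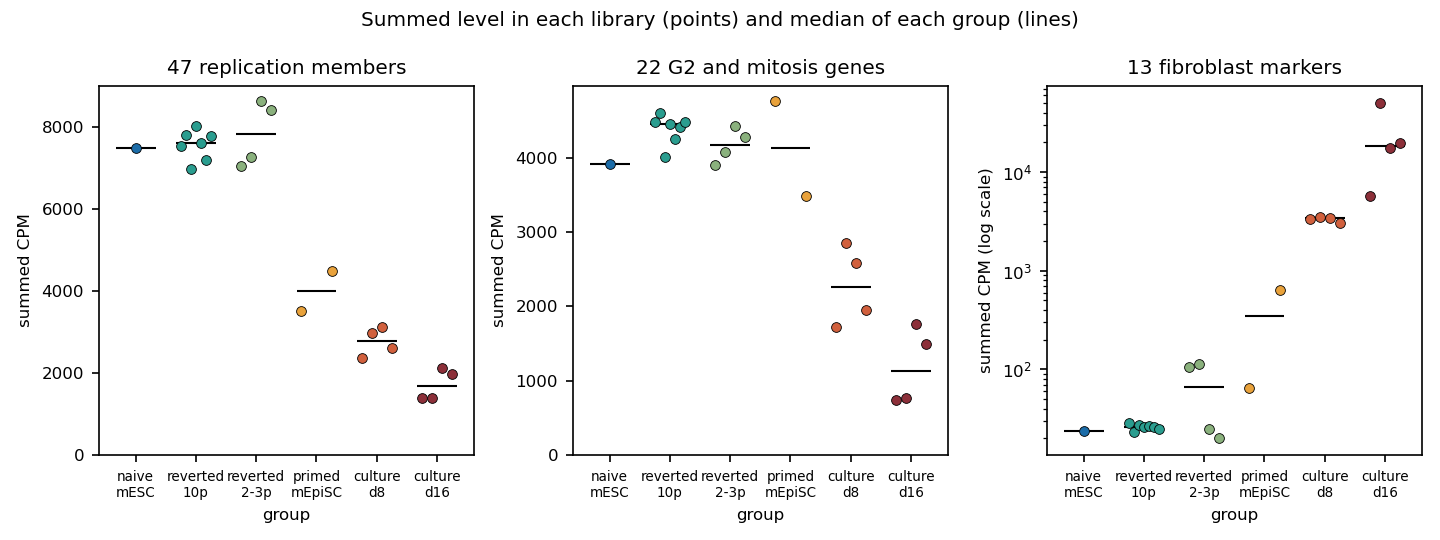
Summed CPM of the 47 members, of 22 G2 and mitosis genes and of 13 fibroblast markers (log axis) in each library; points are libraries and lines are group medians. The members' sums run from 1392 in 2iL d16 to 8639.9 in AICAR d16+3p, with the primed libraries at 3504 and 4484.

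Differences between groups were tested over all genes with edgeR's quasi-likelihood test, with Benjamini-Hochberg adjustment over all genes tested, and a gene is called higher or lower at an adjusted p under 0.05; this is what edgeR adjusted p stands for throughout, and changes are log2 differences ± their standard error. All 47 members passed the filter on low counts in each comparison with the full counts. Between the d16+10p and the primed libraries, 30 of the 47 members were higher and none was lower, against 16.7% of 18739 genes tested that were higher and 19.9% that were lower. The median member changed by 0.90, and the median of all genes by -0.01. DESeq2 and limma voom each called 33 members higher. For the lower direction edgeR gave 0 members, DESeq2 0 and limma voom 0, and 35 members had an unadjusted p under 0.05 in either direction. The 30 became 16 without the primed Oct4GIP library, where 1837 of all genes were higher against 3130 with it, and without primed 129/MSM 1 member, Pold2, was lower. The median member was 1.18 without primed 129/MSM, and thinning every library to the 438771 counts of the smallest left 4 members higher, with 389 of 14607 genes higher. In the 8 cultures against the primed libraries 33 members were lower and 0 higher (19.4% and 18.1% of all genes), with a median of -0.93 against 0.04 for all genes. DESeq2 and limma voom each called 32 lower and 0 higher, and 37 had an unadjusted p under 0.05; thinned counts left 3 lower (413 of 14607 genes), and without primed 129/MSM 1 member, Rrm1, was higher. Against the d16+10p libraries the cultures were lower in 46 of the 47 and higher in 0 (35.6% and 37.0% of all genes), with a median of -1.75 against 0.04. DESeq2 and limma voom also called 46 lower and 0 higher, 46 had an unadjusted p under 0.05, and the 46 held whichever single library was left out. The median of all genes was 0.14 with DESeq2's size factors. These 3 comparisons share libraries in pairs, so their values stand side by side and are not separate evidence. Medium and days since the start differ together between the primed, culture and passaged groups and cannot be told apart. Substrate and feeders differ with them between the cultures and the passaged cells. They also differ within the primed group, where 129/MSM was grown on feeders, as the cultures were, and Oct4GIP on fibronectin.

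**Figure D2:**
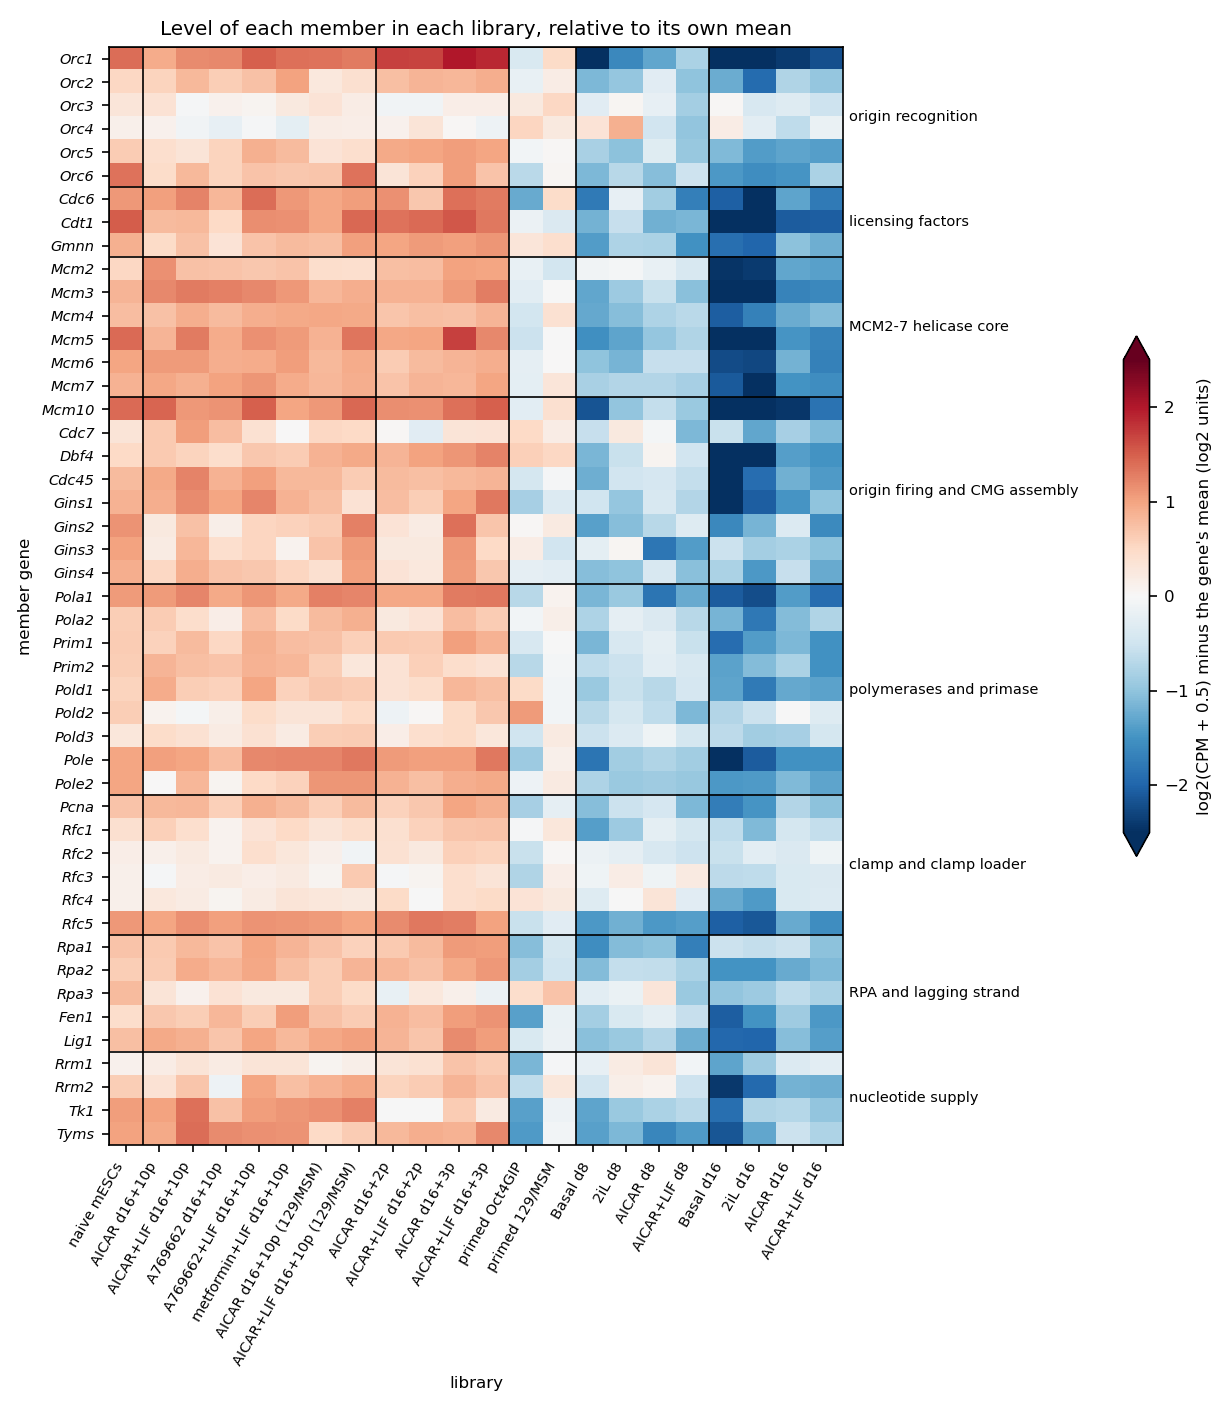
Level of each member (in the order of the roles) in each library, as log2 of its CPM over its mean across the libraries, with the libraries ordered by group. Most members are high in the naive and reverted libraries and low in the cultures; Orc1, for example, is 153 CPM in AICAR d16+3p and 2.83 in Basal d16, and Orc4 has the estimate nearest to 0 between cultures and d16+10p, 0.01.

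The sequences around the starts of the members were searched for known cell cycle motifs. RefSeq promoter windows of 300 bases around a transcription start (mouse build GRCm38.p6) were found for 39 of the 47 members. Searched on both strands were the E2F sites TTTCCCGC, TTTCGCGC, TTTGCCGC and TTTGGCGC, the CHR element TTTGAA and the CCAAT box CCAAT; matches can share letters, as an E2F site and a CCAAT box of Mcm7 do. An E2F match was present in 15 of the 39 members (38.5%), against 4.32% of the genes kept by the filter and 2.61% of all genes with a window. For the CHR element it was 7 of 39 (17.9%, against 14.96% and 20.2%), and for the CCAAT box 23 of 39 (59.0%, against 43.4% and 41.1%). Among 17 G2 and mitosis genes with a window, 1 had an E2F match (5.88%), 11 a CHR element (64.7%) and 14 a CCAAT box (82.4%). E2F matches were also frequent in related lists, with 7 of 22 other replication genes (31.8%) and 5 of 10 E2F and pocket protein genes. These 3 lists were set beside the members after seeing the data. A match is a string of letters and does not show that a factor binds there. Shown are the windows of the 5 genes that are given library by library and have an E2F match, with the matches in capitals: the helicase subunit gene Mcm5 at chr8:75109259-75109558 (plus strand), the origin recognition gene Orc1 at chr4:108579204-108579503 (plus strand), the licensing factor gene Cdt1 at chr8:122567765-122568064 (plus strand), the polymerase alpha gene Pola1 at chrX:93632106-93632405 (minus strand) and the ligase gene Lig1 at chr7:13278576-13278875 (plus strand), which has 3 windows and a match in 1. Each is written 5′ to 3′ on the strand of its gene around a start of the promoter reference; the Mcm5 window ends before 75109569, where GENCODE starts the gene, and the Lig1 window lies inside the gene, which GENCODE starts at 13277283.
Mcm5: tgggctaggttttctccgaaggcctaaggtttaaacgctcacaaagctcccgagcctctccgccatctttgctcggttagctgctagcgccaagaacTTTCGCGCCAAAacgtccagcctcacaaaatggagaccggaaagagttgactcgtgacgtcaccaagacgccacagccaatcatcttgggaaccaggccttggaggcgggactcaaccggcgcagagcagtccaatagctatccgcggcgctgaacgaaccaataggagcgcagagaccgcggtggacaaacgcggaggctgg
Orc1: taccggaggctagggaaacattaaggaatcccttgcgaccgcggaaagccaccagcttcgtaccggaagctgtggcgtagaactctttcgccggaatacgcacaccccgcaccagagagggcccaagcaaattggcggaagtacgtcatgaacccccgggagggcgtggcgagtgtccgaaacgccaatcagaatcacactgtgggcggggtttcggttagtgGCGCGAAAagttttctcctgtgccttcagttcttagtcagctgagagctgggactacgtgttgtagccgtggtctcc
Cdt1: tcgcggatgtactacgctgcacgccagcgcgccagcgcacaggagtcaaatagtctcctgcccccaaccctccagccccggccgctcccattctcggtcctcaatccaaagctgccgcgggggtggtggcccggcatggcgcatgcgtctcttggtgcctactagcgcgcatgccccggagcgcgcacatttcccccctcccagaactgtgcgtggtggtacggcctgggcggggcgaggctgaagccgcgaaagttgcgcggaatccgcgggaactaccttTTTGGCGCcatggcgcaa
Pola1: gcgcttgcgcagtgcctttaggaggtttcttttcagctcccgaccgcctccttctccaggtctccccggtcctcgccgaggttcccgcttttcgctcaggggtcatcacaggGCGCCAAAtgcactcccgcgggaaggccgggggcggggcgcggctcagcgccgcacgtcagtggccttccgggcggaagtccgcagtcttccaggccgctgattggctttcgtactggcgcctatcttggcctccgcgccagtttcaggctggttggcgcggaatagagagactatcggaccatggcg
Lig1: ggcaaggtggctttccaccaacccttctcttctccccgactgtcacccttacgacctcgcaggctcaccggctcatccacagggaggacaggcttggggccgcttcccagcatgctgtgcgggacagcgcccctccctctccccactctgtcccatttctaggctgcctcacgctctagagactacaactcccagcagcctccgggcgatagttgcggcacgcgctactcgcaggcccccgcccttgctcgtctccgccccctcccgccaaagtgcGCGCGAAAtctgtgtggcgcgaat

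Of the 6 origin recognition genes, which encode the complex that marks origins, Orc1, Orc5 and Orc6 were higher in d16+10p than in primed cells (median 0.60, range -0.40 to 1.17), and all 3 calls were lost without the primed Oct4GIP library. Orc5 (0.57) lost its call without primed Oct4GIP (0.52) and primed 129/MSM (0.62). Orc6 (1.04) lost its call without primed Oct4GIP (0.72). Orc1, Orc2, Orc3, Orc5 and Orc6 were lower in the cultures than in primed cells (median -0.92, range -2.38 to -0.39), or 3 of the 6 without primed 129/MSM. Orc3 (-0.66) lost its call without primed 129/MSM (-0.56). Orc6 (-0.82) lost its call without primed 129/MSM (-0.45). The same 5 were lower in the cultures than in d16+10p cells, and Orc4 did not pass the test (median -1.62, range -3.54 to 0.01). Orc2, a subunit of the core of the complex, had the highest mean level and Orc1, its cell cycle regulated ATPase subunit, the greatest change between cultures and d16+10p.

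Orc2 stood at 91.5 CPM in the naive mESCs, at 56.3 in primed Oct4GIP and 72.96 in primed 129/MSM, at 108, 115, 114 and 120.2 in the d16+2p and d16+3p libraries, and between 76.4 and 129 (median 97.3) in the d16+10p libraries. The cultures had 28.95, 32.3, 52.1 and 31.6 CPM of Orc2 at d8 and 26.6, 16.4, 37.8 and 32.4 at d16. All 7 d16+10p values were above both primed values, and both primed values above all 8 culture values; the d8 and d16 cultures overlapped, with AICAR d8 the highest of them. Orc2 had an estimate of 0.63 ± 0.25 for the d16+10p against the primed libraries, which did not pass the test (edgeR adjusted p = 0.0528), and was 0.68 without the AICAR d16+10p (129/MSM) library (edgeR adjusted p = 0.0375) and 0.66 without the AICAR+LIF d16+10p (129/MSM) library (edgeR adjusted p = 0.0474). Orc2 passed with DESeq2 (adjusted p = 0.0276), with limma voom (adjusted p = 0.0295) and with these groups fitted alone (edgeR adjusted p = 0.0348). Its change from primed to culture libraries was -1.02 ± 0.23 (edgeR adjusted p = 0.00173). Orc2 was lower in the cultures than in the d16+10p libraries, with a change of -1.65 ± 0.16 (edgeR adjusted p = 1.46e-08). In primed Oct4GIP and 129/MSM cells Orc1 was 29.1 and 53.1 CPM, against 101 in naive mESCs, 125, 123, 153 and 142 in the d16+2p and d16+3p libraries and 72.4 to 107 (median 94.9) in the d16+10p libraries. Orc1 in the cultures was 5.07, 12.03, 15.1 and 21.7 CPM at d8 and 2.83, 4.41, 6.87 and 7.90 at d16. The groups were ordered without overlap from the d16+2p and d16+3p libraries through d16+10p and primed to the cultures, and within the cultures Basal was the lowest at both days. Orc1 was higher in the d16+10p libraries than in the primed ones, by 1.17 ± 0.32 (edgeR adjusted p = 0.00745), a difference that was 0.80 without the primed Oct4GIP library (edgeR adjusted p = 0.158). From primed to culture libraries Orc1 changed by -2.38 ± 0.30 (edgeR adjusted p = 7.23e-06). Orc1 was lower in the cultures than in the d16+10p libraries, with a change of -3.54 ± 0.23 (edgeR adjusted p = 3.44e-11).

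Among the 3 licensing factors, Cdc6 and Cdt1, which bring MCM2-7 rings to origins, were higher in d16+10p than in primed cells (median of the role 1.26), 1 of them without the primed Oct4GIP library. Cdc6 changed by 1.26 ± 0.40 (edgeR adjusted p = 0.0161), with estimates of 0.65 without primed Oct4GIP (edgeR adjusted p = 0.298) and 2.39 without primed 129/MSM. All 3 were lower in the cultures than in primed cells (median -1.42) and than in d16+10p cells (median -2.53). Cdc6 (-1.27) lost its call against primed cells without primed 129/MSM (-0.19, edgeR adjusted p = 0.807). The level of Cdt1 was 251 CPM in naive mESCs, 79.8 and 68.5 in the primed Oct4GIP and 129/MSM libraries, 228, 237, 261 and 221 at 2 and 3 passages, and 125 at the lowest, 174 at the median and 241 at the highest at 10 passages. At d8 the cultures gave 38.7, 59.3, 37.9 and 39.5 CPM of Cdt1, and at d16 15.3, 12.4, 20.6 and 20.7. Reverted libraries of every passage lay above the primed ones, the primed ones above the cultures, and the d8 cultures above the d16 cultures, with no overlap at any of these steps. Cdt1 was higher in the d16+10p libraries than in the primed ones, by 1.26 ± 0.24 (edgeR adjusted p = 0.000278). The cultures were lower than the primed libraries in Cdt1, with a change of -1.42 ± 0.21 (edgeR adjusted p = 3.26e-05). Cdt1 was lower in the cultures than in the d16+10p libraries, with a change of -2.68 ± 0.15 (edgeR adjusted p = 4.63e-12). Gmnn encodes geminin, the inhibitor of Cdt1. Gmnn stood at 65.2 CPM in the naive mESCs, at 43.04 in primed Oct4GIP and 47.1 in primed 129/MSM, at 69.3, 73.4, 71.5 and 75.9 in the d16+2p and d16+3p libraries, and between 44.7 and 71.7 (median 58.1) in the d16+10p libraries. The cultures had 13.03, 20.3, 19.9 and 11.9 CPM of Gmnn at d8 and 9.05, 8.42, 16.9 and 14.7 at d16. Primed Oct4GIP lay just below the d16+10p range and primed 129/MSM inside its lower end, while all culture values were below both of them and the d8 and d16 cultures overlapped. Gmnn had an estimate of 0.34 ± 0.23 for the d16+10p against the primed libraries, which did not pass the test (edgeR adjusted p = 0.265). Its change from primed to culture libraries was -1.66 ± 0.22 (edgeR adjusted p = 1.07e-05). Gmnn was lower in the cultures than in the d16+10p libraries, with a change of -2.002 ± 0.16 (edgeR adjusted p = 6.22e-10).

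All 6 genes of the MCM2-7 ring, the core of the replicative helicase, were higher in d16+10p than in primed cells (median 1.04, range 0.87 to 1.34), or 3 of them without primed Oct4GIP. Mcm4 (0.87) lost its call without primed Oct4GIP (0.51) and changed by 1.35 without primed 129/MSM. Mcm7 (0.90) lost its call without primed Oct4GIP (0.65). All 6 were lower in the cultures than in primed cells (median -1.29, range -1.39 to -0.66). Mcm4 (-1.24) changed by -0.80 without primed 129/MSM. They were also lower in the cultures than in d16+10p cells (median -2.28, range -2.68 to -1.68). Mcm2 had the highest mean level of the 6 and Mcm5 the greatest change between cultures and d16+10p. In primed Oct4GIP and 129/MSM cells Mcm2 was 269 and 224 CPM, against 439.7 in naive mESCs, 514, 521, 619 and 611 in the d16+2p and d16+3p libraries and 410.4 to 681 (median 500.3) in the d16+10p libraries. Mcm2 in the cultures was 289.9, 296, 268 and 233 CPM at d8 and 55.6, 58.2, 124 and 119 at d16. Both primed values lay below all reverted values, with primed Oct4GIP among the d8 cultures and primed 129/MSM below them, and the d16 cultures stood below everything else, with Basal and 2iL the lowest. Mcm2 was higher in the d16+10p libraries than in the primed ones, by 1.02 ± 0.26 (edgeR adjusted p = 0.00457), a difference that was 0.89 without the primed 129/MSM library (edgeR adjusted p = 0.0664). From primed to culture libraries Mcm2 changed by -0.66 ± 0.23 (edgeR adjusted p = 0.0313), a change that was -0.52 without the primed Oct4GIP library (edgeR adjusted p = 0.248). Mcm2 was lower in the cultures than in the d16+10p libraries, with a change of -1.68 ± 0.16 (edgeR adjusted p = 1.14e-08). The level of Mcm5 was 583 CPM in naive mESCs, 152 and 217 in the primed Oct4GIP and 129/MSM libraries, 430.4, 438, 717 and 505 at 2 and 3 passages, and 396 at the lowest, 457 at the median and 558 at the highest at 10 passages. At d8 the cultures gave 75.3, 87.5, 112 and 130.4 CPM of Mcm5, and at d16 29.05, 35.7, 78.95 and 68.9. Each primed value was above every culture value and below every reverted value, and at each day the AICAR and AICAR+LIF cultures were above Basal and 2iL. Mcm5 was higher in the d16+10p libraries than in the primed ones, by 1.34 ± 0.32 (edgeR adjusted p = 0.00249), a difference that was 1.10 without the primed Oct4GIP library (edgeR adjusted p = 0.0648). The cultures were lower than the primed libraries in Mcm5, with a change of -1.35 ± 0.27 (edgeR adjusted p = 0.000675). Mcm5 was lower in the cultures than in the d16+10p libraries, with a change of -2.68 ± 0.20 (edgeR adjusted p = 2.53e-10).

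In the 8 genes for origin firing and CMG assembly, Mcm10, Cdc45, Gins1 and Gins4 were higher in d16+10p than in primed cells (median 0.84), 2 of the 8 without primed Oct4GIP. Cdc45 (1.15) lost its call without primed Oct4GIP (0.96). Gins4 (0.95) lost its call without primed 129/MSM (0.92). Gins1, a GINS subunit, had one of the 3 largest changes among the members in this comparison, 1.51 ± 0.34 (edgeR adjusted p = 0.00133). Mcm10, Cdc7, Dbf4, Cdc45, Gins2 and Gins4 were lower in the cultures than in primed cells (median -0.96), 3 of the 8 without primed 129/MSM. Cdc7 (-0.93) lost its call without primed Oct4GIP (-0.77). Cdc45 (-0.99) lost its call without primed 129/MSM (-0.82). Gins2 (-1.16) lost its call without primed 129/MSM (-1.11). Gins4 (-0.68) lost its call without primed Oct4GIP (-0.65), Basal d8 (-0.64), 2iL d16 (-0.59) and primed 129/MSM (-0.75). All 8 were lower in the cultures than in d16+10p cells (median -1.80). Dbf4 activates the Cdc7 kinase that fires origins. Dbf4 stood at 137 CPM in the naive mESCs, at 146 in primed Oct4GIP and 139 in primed 129/MSM, at 175, 195, 209 and 229.8 in the d16+2p and d16+3p libraries, and between 131 and 187 (median 152) in the d16+10p libraries. The cultures had 43.8, 65.9, 102 and 69.2 CPM of Dbf4 at d8 and 13.4, 13.2, 36.8 and 34.3 at d16. The d16+10p range took in both primed values, all 8 cultures were below them, and the d16 cultures were below the d8 cultures, with Basal and 2iL at the bottom. Dbf4 had an estimate of 0.14 ± 0.30 for the d16+10p against the primed libraries, which did not pass the test (edgeR adjusted p = 0.759). Its change from primed to culture libraries was -1.79 ± 0.28 (edgeR adjusted p = 5.52e-05). Dbf4 was lower in the cultures than in the d16+10p libraries, with a change of -1.93 ± 0.20 (edgeR adjusted p = 4.13e-08). Mcm10 helps the CMG helicase to start unwinding. In primed Oct4GIP and 129/MSM cells Mcm10 was 56.7 and 89.1 CPM, against 182 in naive mESCs, 151, 149.8, 178 and 192 in the d16+2p and d16+3p libraries and 135 to 193 (median 148) in the d16+10p libraries. Mcm10 in the cultures was 14.8, 34.00, 44.5 and 35.6 CPM at d8 and 7.54, 6.02, 12.2 and 18.4 at d16. Primed libraries were below all reverted libraries and above all cultures, and the cultures of the 2 days overlapped. Mcm10 was higher in the d16+10p libraries than in the primed ones, by 1.15 ± 0.33 (edgeR adjusted p = 0.00898), a difference that was 0.86 without the primed Oct4GIP library (edgeR adjusted p = 0.152). From primed to culture libraries Mcm10 changed by -1.99 ± 0.29 (edgeR adjusted p = 3.28e-05). Mcm10 was lower in the cultures than in the d16+10p libraries, with a change of -3.13 ± 0.22 (edgeR adjusted p = 1.07e-10).

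Of the 9 polymerase and primase genes, Pola1, Prim1, Prim2, Pold1, Pold3 and Pole were higher in d16+10p than in primed cells (median 0.61, range -0.34 to 1.41). Without primed Oct4GIP 3 of the 9 were higher, and without primed 129/MSM Pold2, a subunit of polymerase delta, was lower, with a change of -0.80. Prim1 (0.90) lost its call without primed Oct4GIP (0.72). Pold1 (0.50) lost its call without AICAR d16+10p (0.46), A769662+LIF d16+10p (0.45), metformin+LIF d16+10p (0.50) and primed 129/MSM (0.24) and changed by 0.80 without primed Oct4GIP. Pold3 (0.52) lost its call without primed Oct4GIP (0.20), AICAR d16+10p (129/MSM) (0.48) and AICAR+LIF d16+10p (129/MSM) (0.48) and changed by 0.92 without primed 129/MSM. Pola1, Pola2, Prim1, Pold1, Pold2, Pole and Pole2 were lower in the cultures than in primed cells (median -1.13). Prim1 (-0.83) lost its call without primed 129/MSM (-0.67). Pold2 (-1.13) lost its call without primed Oct4GIP (-0.45). All 9 were lower than in d16+10p cells (median -1.74). Pole, the catalytic subunit of the leading strand polymerase, had the highest mean level. The level of Pole was 178 CPM in naive mESCs, 47.8 and 98.9 in the primed Oct4GIP and 129/MSM libraries, 189.8, 184, 184 and 226 at 2 and 3 passages, and 155 at the lowest, 207 at the median and 225 at the highest at 10 passages. At d8 the cultures gave 24.97, 48.9, 53.02 and 49.4 CPM of Pole, and at d16 11.1, 20.9, 31.2 and 31.2. Reverted libraries were all above the primed ones, primed Oct4GIP was below 3 of the 4 d8 cultures, and the d16 cultures were below both primed libraries. Pole was higher in the d16+10p libraries than in the primed ones, by 1.41 ± 0.33 (edgeR adjusted p = 0.00196), a difference that was 0.98 without the primed Oct4GIP library (edgeR adjusted p = 0.0772). The cultures were lower than the primed libraries in Pole, with a change of -1.21 ± 0.29 (edgeR adjusted p = 0.00248), a change that was -0.64 without the primed 129/MSM library (edgeR adjusted p = 0.202). Pole was lower in the cultures than in the d16+10p libraries, with a change of -2.62 ± 0.21 (edgeR adjusted p = 5.9e-10). The sign of the Pole difference between cultures and primed cells turned when all libraries were thinned to the smallest total (0.30). Pola1 is the catalytic subunit of polymerase alpha, which with primase starts each new strand. Pola1 stood at 179.7 CPM in the naive mESCs, at 52.6 in primed Oct4GIP and 91.6 in primed 129/MSM, at 167, 167, 211 and 214 in the d16+2p and d16+3p libraries, and between 165 and 207 (median 184) in the d16+10p libraries. The cultures had 38.4, 44.8, 23.7 and 35.6 CPM of Pola1 at d8 and 19.8, 18.1, 32.1 and 22.6 at d16. No primed value reached the reverted values, none of the cultures reached a primed value, and the d8 and d16 cultures overlapped. Pola1 was higher in the d16+10p libraries than in the primed ones, by 1.37 ± 0.24 (edgeR adjusted p = 0.000145). Its change from primed to culture libraries was -1.32 ± 0.21 (edgeR adjusted p = 7.78e-05). Pola1 was lower in the cultures than in the d16+10p libraries, with a change of -2.68 ± 0.15 (edgeR adjusted p = 5.27e-12).

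Pcna, which forms the sliding clamp, and Rfc5, a subunit of the RFC complex that loads it, were the 2 of 6 clamp and loader genes that were higher in d16+10p than in primed cells (median of the role 0.43), 4 of 6 without primed 129/MSM. Rfc1, Rfc4 and Rfc5 were lower in the cultures than in primed cells (median -0.60). Rfc1 (-0.83) lost its call without primed 129/MSM (-0.71). Rfc4 (-0.72) lost its call without primed Oct4GIP (-0.67). All 6 were lower in the cultures than in d16+10p cells (median -0.87, range -2.61 to -0.46). In primed Oct4GIP and 129/MSM cells Pcna was 110.0 and 167 CPM, against 319 in naive mESCs, 289.8, 311, 388 and 361 in the d16+2p and d16+3p libraries and 294 to 361 (median 339) in the d16+10p libraries. Pcna in the cultures was 93.4, 135, 147 and 88.9 CPM at d8 and 58.7, 69.8, 118 and 95.6 at d16. All reverted libraries exceeded both primed libraries, whereas the primed values overlapped those of the cultures at d8 and at d16. Pcna was higher in the d16+10p libraries than in the primed ones, by 1.26 ± 0.25 (edgeR adjusted p = 0.000406). Between cultures and primed libraries the estimate for Pcna was -0.47 ± 0.22 (edgeR adjusted p = 0.0949), and was -0.57 without the AICAR d16 library (edgeR adjusted p = 0.0318). Pcna was lower in the cultures than in the d16+10p libraries, with a change of -1.73 ± 0.15 (edgeR adjusted p = 2.15e-09). Counts of Pcna are uncertain because a near copy, Pcna-ps2, is listed with 36.3% as many counts as Pcna over all libraries (28.7% to 50.8% in single libraries); with both summed, a choice made after seeing the data, the change was 1.23 between d16+10p and primed cells and -0.48 between cultures and primed cells, and no call changed. The level of Rfc5 was 155 CPM in naive mESCs, 49.3 and 60.01 in the primed Oct4GIP and 129/MSM libraries, 165, 182, 177 and 146 at 2 and 3 passages, and 144 at the lowest, 154 at the median and 161 at the highest at 10 passages. At d8 the cultures gave 26.8, 31.5, 26.5 and 27.7 CPM of Rfc5, and at d16 17.4, 16.4, 30.3 and 24.5. The reverted libraries made up the highest group, the primed pair an intermediate one and the cultures the lowest, without overlap between the 3, and the 2 culture days overlapped. Rfc5 was higher in the d16+10p libraries than in the primed ones, by 1.49 ± 0.19 (edgeR adjusted p = 3.95e-06). The cultures were lower than the primed libraries in Rfc5, with a change of -1.13 ± 0.17 (edgeR adjusted p = 3.84e-05). Rfc5 was lower in the cultures than in the d16+10p libraries, with a change of -2.61 ± 0.12 (edgeR adjusted p = 1.96e-13).

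Of the 5 genes for RPA, which coats single-stranded DNA, and for joining of lagging strand fragments, Rpa1, Rpa2, Fen1 and Lig1 were higher in d16+10p than in primed cells (median of the role 1.40). Fen1, the flap nuclease of the lagging strand, changed by 1.40 ± 0.29 (edgeR adjusted p = 0.000641), by 0.92 without primed Oct4GIP and by 2.13 without primed 129/MSM. Rpa3 and Lig1 were lower in the cultures than in primed cells (median -0.39), and all 5 were lower than in d16+10p cells (median -1.75). Lig1, the ligase that seals the fragments, had both the highest mean level and the greatest change between cultures and d16+10p. Lig1 stood at 283 CPM in the naive mESCs, at 128 in primed Oct4GIP and 151 in primed 129/MSM, at 304, 270.4, 380.0 and 348 in the d16+2p and d16+3p libraries, and between 271 and 344 (median 324) in the d16+10p libraries. The cultures had 81.1, 87.5, 101 and 71.2 CPM of Lig1 at d8 and 42.8, 42.1, 79.9 and 64.4 at d16. The order was again reverted, primed and cultures with no overlap, and the d16 Basal and 2iL cultures were the lowest libraries. Lig1 was higher in the d16+10p libraries than in the primed ones, by 1.17 ± 0.21 (edgeR adjusted p = 0.000226). Its change from primed to culture libraries was -0.99 ± 0.19 (edgeR adjusted p = 0.000389). Lig1 was lower in the cultures than in the d16+10p libraries, with a change of -2.16 ± 0.13 (edgeR adjusted p = 1.69e-11).

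Of the 4 genes for nucleotide supply, Rrm1, Tk1 and Tyms were higher in d16+10p than in primed cells (median 1.19), 1 of them without primed Oct4GIP. Rrm1 (0.71) lost its call without primed Oct4GIP (0.26), AICAR+LIF d16+10p (0.69), A769662+LIF d16+10p (0.69) and metformin+LIF d16+10p (0.67) and changed by 1.37 without primed 129/MSM. Tk1, the thymidine kinase of cycling cells, changed most of all members, by 1.74 ± 0.32 (edgeR adjusted p = 0.000247). Rrm2 was lower in the cultures than in primed cells (median of the role -0.52); without primed Oct4GIP 2 of the 4 were lower, the call of Rrm2 was lost without Basal d8, Basal d16, 2iL d16 or primed 129/MSM, and without primed 129/MSM Rrm1 was higher by 0.82. All 4 were lower in the cultures than in d16+10p cells (median -1.84, range -2.25 to -0.51). Rrm2 is the S phase subunit of ribonucleotide reductase. In primed Oct4GIP and 129/MSM cells Rrm2 was 128 and 243 CPM, against 303 in naive mESCs, 292, 310.0, 360.4 and 324 in the d16+2p and d16+3p libraries and 181 to 393 (median 335) in the d16+10p libraries. Rrm2 in the cultures was 142, 220.2, 211 and 138 CPM at d8 and 36.97, 51.3, 87.4 and 85.4 at d16. The d16+10p range overlapped the primed pair and the d8 cultures, and the d16 cultures were below all other libraries. Rrm2 had an estimate of 0.78 ± 0.32 for the d16+10p against the primed libraries, which did not pass the test (edgeR adjusted p = 0.0636), and was 0.88 without the A769662 d16+10p library (edgeR adjusted p = 0.0284) and 1.31 without the primed 129/MSM library (edgeR adjusted p = 0.029). From primed to culture libraries Rrm2 changed by -0.78 ± 0.29 (edgeR adjusted p = 0.0385), a change that was -0.73 without the Basal d8 library (edgeR adjusted p = 0.0612), -0.68 without the Basal d16 library (edgeR adjusted p = 0.0513), -0.71 without the 2iL d16 library (edgeR adjusted p = 0.0662) and -0.29 without the primed 129/MSM library (edgeR adjusted p = 0.601). DESeq2 and limma voom called Rrm2 higher in d16+10p than in primed cells (adjusted p = 0.0459 and 0.0457). Neither tool called it in cultures against primed cells (adjusted p = 0.0634 and 0.0528). With a term for the line, chosen after seeing the data, these changes were 0.93 (edgeR adjusted p = 0.0249) and -0.48 (edgeR adjusted p = 0.252). Rrm2 was lower in the cultures than in the d16+10p libraries, with a change of -1.56 ± 0.20 (edgeR adjusted p = 7.12e-07). Tyms makes thymidylate. The level of Tyms was 108 CPM in naive mESCs, 19.9 and 51.5 in the primed Oct4GIP and 129/MSM libraries, 95.03, 102, 98.7 and 125 at 2 and 3 passages, and 76.4 at the lowest, 117 at the median and 142 at the highest at 10 passages. At d8 the cultures gave 20.6, 24.5, 17.04 and 19.8 CPM of Tyms, and at d16 11.9, 21.7, 36.8 and 31.2. The reverted libraries were all above the primed ones, while primed Oct4GIP lay among the cultures and primed 129/MSM above them. Tyms was higher in the d16+10p libraries than in the primed ones, by 1.61 ± 0.36 (edgeR adjusted p = 0.00133), a difference that was 1.09 without the primed Oct4GIP library (edgeR adjusted p = 0.0588) and 2.45 without the primed 129/MSM library. The estimate of Tyms for the cultures against the primed libraries was -0.65 ± 0.32 (edgeR adjusted p = 0.121), and was -1.17 without the primed Oct4GIP library (edgeR adjusted p = 0.0231). Tyms was lower in the cultures than in the d16+10p libraries, with a change of -2.25 ± 0.22 (edgeR adjusted p = 1.49e-08). Rrm2b, the ribonucleotide reductase subunit of resting cells and DNA damage, belongs to the other replication genes and not to the members. Rrm2b stood at 17.4 CPM in the naive mESCs, at 24.6 in primed Oct4GIP and 17.7 in primed 129/MSM, at 20.7, 19.8, 17.1 and 19.7 in the d16+2p and d16+3p libraries, and between 14.9 and 30.2 (median 18.5) in the d16+10p libraries. The cultures had 27.5, 19.5, 17.99 and 21.7 CPM of Rrm2b at d8 and 27.9, 17.7, 15.6 and 18.8 at d16. The ranges of the primed, reverted and culture groups overlapped, and the naive value lay below both primed values and all d8 values. Rrm2b had an estimate of -0.07 ± 0.28 for the d16+10p against the primed libraries, which did not pass the test (edgeR adjusted p = 0.921). Its estimate for the cultures against the primed libraries was -0.01 ± 0.27 (edgeR adjusted p = 1). Rrm2b had an estimate of 0.06 ± 0.18 for the cultures against the d16+10p libraries (edgeR adjusted p = 0.788).

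**Figure D3:**
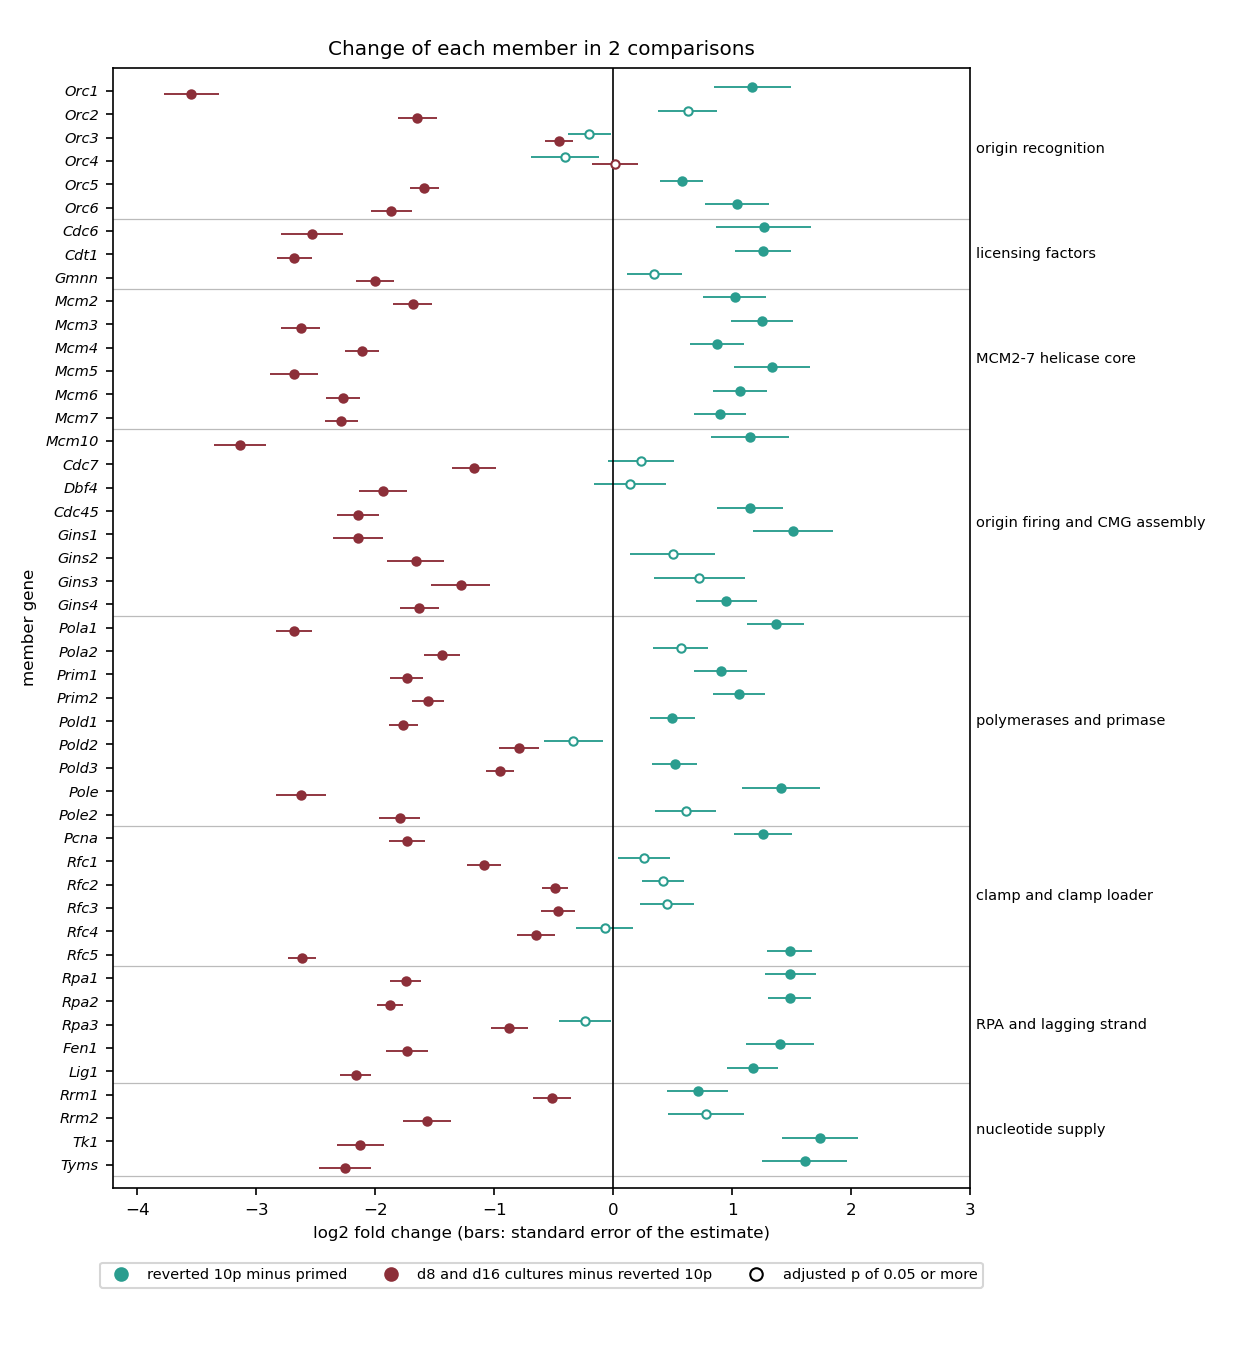
log2 fold change with its standard error for each member in d16+10p against primed libraries (green) and in cultures against d16+10p libraries (red); open points have an adjusted p of 0.05 or more. The green values run from -0.40 (Orc4) to 1.74 (Tk1) and the red ones from -3.54 (Orc1) to 0.01 (Orc4).

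The members were set beside each other after division by the length of their longest annotated coding transcript. A gene whose reads came mostly from shorter transcripts gets too low a value this way. Orc4 and Gins2 were divided by 4066 and 3900 bases. In the d16+10p group the median level was 224 CPM per kb for Pcna, 187 for Mcm3, 153 for Rrm2, 148 for Mcm2 and 147 for Mcm7. At the other end were Orc4 with 10.6, Gins2 with 9.47 and Gins3 with 6.58 CPM per kb. By this measure transcripts of the clamp, of the helicase core and of Rrm2 were the most abundant of the machinery in d16+10p cells. The other reductase gene Rrm1 was at 59.8, and single subunits of the origin recognition and GINS complexes had the lowest values. In the cultures the order was another, with Pcna at 62.2 CPM per kb, Mcm2 at 52.97, Rrm2 at 51.5, Rrm1 at 43.6, Mcm7 at 35.3, Mcm3 at 29.9 and Pold2 at 28.02, above the other 3 MCM2-7 genes.

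A list of 30 other replication genes, such as checkpoint, chromatin assembly and S phase cyclin genes, was set beside the members. Of these, 19 were higher and 1 lower in d16+10p than in primed cells (median 0.78), 10 and none without primed Oct4GIP. Uhrf1, which recruits the maintenance DNA methyltransferase to replicated DNA, changed by 2.21 ± 0.31 (edgeR adjusted p = 1.25e-05). Ticrr, needed to load Cdc45, changed by 1.86 ± 0.28 (edgeR adjusted p = 2.55e-05). Pold4, the small subunit of polymerase delta, was the gene with a lower level, with -2.45 ± 0.53 (edgeR adjusted p = 0.00102), -1.62 without primed Oct4GIP (edgeR adjusted p = 0.0961), and is uncertain since its name stands for 2 genes of the table. In the cultures 20 of the 30 were lower and 1 was higher than in primed cells (median -0.79), and 10 were lower without primed 129/MSM. Dut, which keeps uracil out of DNA, changed by -1.57 ± 0.23 (edgeR adjusted p = 3.02e-05), and Wdhd1, which ties polymerase alpha to the helicase, by -1.38 ± 0.27 (edgeR adjusted p = 0.00049). The gene with a higher level was Pole3, a small subunit of polymerase epsilon, with 0.58 ± 0.17 (edgeR adjusted p = 0.0104), 0.26 without primed Oct4GIP (edgeR adjusted p = 0.32) and 0.94 without primed 129/MSM. Against d16+10p cells 26 of the 30 were lower and 2, Pold4 and Pole3, higher in the cultures (median -1.49).

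Genes of the E2F factors and of the pocket proteins that bind them had few calls in the comparisons with primed cells. Of 13, E2f1 alone was higher in d16+10p than in primed cells (2 without primed 129/MSM or without AICAR+LIF d16+10p (129/MSM)), with 1.77 ± 0.39 (edgeR adjusted p = 0.00124), and Rb1 and E2f5 were lower (1 without either primed library; median 0.15), against 16.7% and 19.9% of all genes. Rb1, the retinoblastoma pocket protein, changed by -1.57 ± 0.38 (edgeR adjusted p = 0.00255), -0.95 without primed Oct4GIP (edgeR adjusted p = 0.174), and the repressive factor E2f5 by -0.80 ± 0.24 (edgeR adjusted p = 0.0124), -0.40 without primed 129/MSM (edgeR adjusted p = 0.356). In the cultures against primed cells Rbl2, another pocket protein, was higher, with 1.90 ± 0.36 (edgeR adjusted p = 0.00044); 2 were higher without AICAR d8, AICAR+LIF d8 or primed 129/MSM. Lower were E2f8, with -1.21 ± 0.33 (edgeR adjusted p = 0.00631), and E2f4, with -0.96 ± 0.23 (edgeR adjusted p = 0.00253), at a median of -0.22 for the list; of all genes 18.1% were higher and 19.4% lower. Against d16+10p cells the cultures had 4 of the 13 higher, with the largest changes in Rb1 and Rbl2, and 5 lower, with the largest in Tfdp1 and E2f4, at a median of -0.40 (37.0% and 35.6% of all genes).

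Of 22 genes of G2 and mitosis, few passed the test between d16+10p and primed cells. Their sum was 3915 CPM in naive cells, 4765 and 3488 in primed Oct4GIP and 129/MSM, 3904, 4079, 4429 and 4278 at d16+2p and d16+3p and 4008 to 4601 at d16+10p. In the cultures it was 1720.4, 2850.0, 2582 and 1945 at d8 and 736, 767, 1769 and 1491 at d16. The primed pair thus spanned the reverted range, and all 8 cultures were below it. Kif11, which is in this list, is uncertain since its name stands for 2 genes of the table. Mad2l1 made 577 CPM of the primed Oct4GIP sum; without this gene, a choice made after seeing the data, that sum was 4188 CPM, within the 3791 to 4495 of the reverted libraries. Of the 22, Kif20a was higher and Mad2l1 lower in d16+10p than in primed cells, with a median of 0.15 against 0.90 for the members; the difference between the 2 lists was not tested. Kif20a, a kinesin of cytokinesis, changed by 0.84 ± 0.32 (edgeR adjusted p = 0.0421), and its call was lost without primed Oct4GIP (0.71), AICAR+LIF d16+10p (0.81), A769662 d16+10p (0.83), A769662+LIF d16+10p (0.84), metformin+LIF d16+10p (0.82), primed 129/MSM (0.98) and AICAR d16+10p (129/MSM) (0.85). The checkpoint gene Mad2l1 changed by -1.67 ± 0.39 (edgeR adjusted p = 0.00211), but its estimate was 0.33 without primed Oct4GIP (edgeR adjusted p = 0.584), and 2 genes were lower without primed 129/MSM. In the cultures 21 of the 22 were lower and 0 higher than in primed cells (median -1.26), and all 22 were lower than in d16+10p cells (median -1.44). Mki67, a marker of cycling cells, was 403 and 292 CPM in primed Oct4GIP and 129/MSM and 258 to 354 (median 293) at d16+10p, which overlap, and its estimate was -0.21 ± 0.25 (edgeR adjusted p = 0.554). In the cultures it was 185, 291, 318 and 245 at d8 and 99.4, 89.1, 225 and 166 at d16, and against primed cells it changed by -0.84 ± 0.24 (edgeR adjusted p = 0.00934), -0.59 without primed Oct4GIP (edgeR adjusted p = 0.196).

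Within the 8 cultures the question was whether AICAR and time went with the levels of the members. The MCM2-7 genes together gave 797, 853, 960.0 and 897 CPM at d8 and 276, 277, 549.5 and 515 at d16. Both AICAR cultures were above Basal and 2iL at each day, and every d16 sum was below every d8 sum. With the day as a term, 5 of 47 members were higher with AICAR (3.54% of 14026 genes tested) and 0 lower (6.06%), with a median of 0.43 against -0.02 for all genes. The 5 were Dbf4, Mcm3, Mcm4, Mcm5 and Mcm6, so that 4 of the 6 MCM genes passed (median of the role 0.67). All 22 G2 and mitosis genes had estimates above 0, at a median of 0.58, and 1 was called higher (6 without 2iL d8, 0 without any other d8 culture, Basal d16, AICAR d16 or AICAR+LIF d16). Pou5f1 was higher by 4.17 ± 0.67 (edgeR adjusted p = 0.0119), as were the fibroblast marker Postn, by 1.81 ± 0.27 (edgeR adjusted p = 0.0104), and with calls lost without single cultures the primed markers T (2.78) and Eomes (2.70) and the fibroblast marker Pdgfrb (0.84). Of 12 fibroblast markers tested 5 had estimates above 0 and 7 below (median -0.22), and of 5 primed markers 3 and 2. For the lower direction edgeR, DESeq2 and limma voom each gave 0, and 17 members had an unadjusted p under 0.05; DESeq2 called 7 higher and limma voom 6. Dbf4 changed by 1.08 ± 0.22 (edgeR adjusted p = 0.0229), and its call was lost without Basal d8 (1.01), AICAR d8 (1.05), Basal d16 (0.99), AICAR d16 (1.01) and AICAR+LIF d16 (1.05). Mcm5 changed by 0.93 ± 0.17 (edgeR adjusted p = 0.0182), and its call was lost without Basal d8 (0.93), AICAR+LIF d8 (0.93) and AICAR+LIF d16 (0.94). Mcm3 was 100.2, 131, 168 and 121 CPM at d8 and 40.2, 37.3, 77.1 and 80.9 at d16, lower in Basal and 2iL than in either AICAR culture at d16 but not at d8, and changed by 0.72 ± 0.18 (edgeR adjusted p = 0.0416), with the call lost without Basal d8 (0.69), AICAR d8 (0.71), Basal d16 (0.67), AICAR d16 (0.69) and AICAR+LIF d16 (0.66). Mcm4 changed by 0.62 ± 0.15 (edgeR adjusted p = 0.0384), lost without Basal d8 (0.59), 2iL d8 (0.67), AICAR d8 (0.67), AICAR+LIF d8 (0.61), Basal d16 (0.53), AICAR d16 (0.65) and AICAR+LIF d16 (0.59), and Mcm6 by 0.72 ± 0.15 (edgeR adjusted p = 0.0254), lost without Basal d8 (0.77), 2iL d8 (0.70), AICAR d8 (0.76), AICAR+LIF d8 (0.73), Basal d16 (0.69) and AICAR d16 (0.60). The count of 5 rested on single libraries: no member was higher without Basal d8, 2 were without AICAR+LIF d8, and 1 without each of AICAR d8, Basal d16, AICAR d16 and AICAR+LIF d16, while without 2iL d16 1 member was lower. The 497 genes higher of all became 114 without Basal d8, 203 without 2iL d8, 129 without AICAR+LIF d8, 68 without AICAR d8, 263 without Basal d16, 223 without AICAR d16 and 134 without AICAR+LIF d16, and 1146 without 2iL d16. Of the MCM genes 2 were higher without 2iL d8, 1 without each of AICAR d8, AICAR+LIF d8, Basal d16, AICAR d16 and AICAR+LIF d16, and none without Basal d8. With 2iL alone as the control, or without AICAR d8 and AICAR+LIF d8, the libraries of lowest total, no member passed, and with Basal alone 8 did; of all genes 88, 0 and 776 were higher. Without normalization factors the genes called higher and lower were 776 and 650, against 497 and 850 with them.

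**Figure D4:**
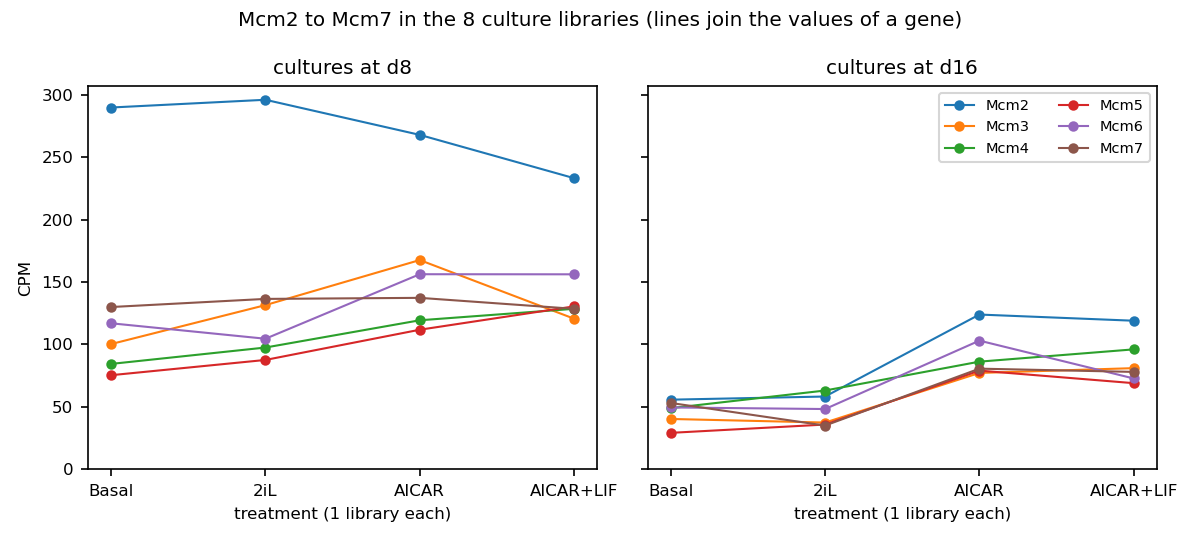
CPM of Mcm2 to Mcm7 in the Basal, 2iL, AICAR and AICAR+LIF cultures at d8 (left) and d16 (right), 1 library each; lines join the values of a gene. At d16 each of the 6 genes is higher in AICAR and AICAR+LIF than in Basal and 2iL (Mcm2 124 and 119 against 55.6 and 58.2 CPM), and at d8 Mcm2 is not (268 and 233 against 289.9 and 296). Mcm3 and Mcm7 are also not at d8, where AICAR+LIF lies below 2iL for both. A difference of the AICAR change between d8 and d16, tested after seeing the data, passed in 0 of 47 members and 28 of 14026 genes (edgeR adjusted p = 0.0945 for Mcm2 and 0.472 for Mcm3).

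From d8 to d16, with the treatment as a term, 19 members were lower and 1 was higher (9.50% and 14.7% of 14026 genes), with a median of -0.61 against 0.01. DESeq2 called 19 lower and 1 higher and limma voom 20 and 1. In this fit, leaving out 1 culture also takes the other day of its treatment out of the day estimate. Leaving out either day of a treatment is thus nearly the same check. All 6 MCM genes were lower (median -1.09), 3 of them without Basal d8 and 3 without Basal d16. Mcm2 changed by -1.69 ± 0.27 (edgeR adjusted p = 0.00899). Dbf4 changed by -1.61 ± 0.22 (edgeR adjusted p = 0.00585). Both calls held whichever culture was left out. Mcm10, with one of the 3 largest decreases, changed by -1.55 ± 0.32 (edgeR adjusted p = 0.0183), a call lost without 2iL d8 (-1.31), AICAR d8 (-1.42) and AICAR d16 (-1.41). Rpa1, the large RPA subunit, was the member with a higher level, at 57.2, 80.03, 83.3 and 51.4 CPM at d8 and 116, 113, 116 and 83.6 at d16 and a change of 0.70 ± 0.18 (edgeR adjusted p = 0.0323), and its call was lost with any of the 8 cultures left out (0.53 to 0.79). The 19 became 6 without Basal d8, 8 without 2iL d8, 10 without AICAR d8, 6 without Basal d16, 10 without 2iL d16 and 10 without AICAR d16; 9 passed without the treatment term and none with thinned counts, where 38 members and 8908 genes were tested, 13 of all genes were lower and the members' median was -0.84. Of all genes 1332 were lower, and 324, 513, 579, 301, 520 and 542 of all genes without these cultures in turn. Without normalization factors the median of all genes was -0.14, and 1727 genes were higher and 1807 lower against 2066 and 1332 with them. Of the 22 G2 and mitosis genes 15 were lower at d16 (median -1.04), 1 without Basal d8, none without Basal d16, 7 without 2iL d8, 7 without 2iL d16, 9 without AICAR d8 and 8 without AICAR d16. Of the 30 other replication genes 10 were lower (median -0.59), 1 without Basal d8, 1 without Basal d16, 3 without 2iL d16 and 2 without each of 2iL d8, AICAR d8 and AICAR d16.

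The fibroblast markers moved with the cultures as well. All 13 were higher in the cultures than in d16+10p cells, and 10 of the 13 were higher than in primed cells. In the d16+10p libraries 10 of the 13 were lower than in primed cells, 2 without the primed 129/MSM library, which was grown on feeders. Of other markers, all 7 for naive cells were higher and 5 of 6 for primed cells lower in d16+10p than in primed libraries, and Sox2, of 2 shared by both states, was higher and Pou5f1 not called. From d8 to d16, 10 of the 12 fibroblast markers tested were higher, 4 without AICAR d8 and 4 without AICAR d16. The sum was at its highest in 2iL d16, 50468 CPM, where Col3a1 reached 17427 CPM. 2iL d16 and Basal d16 (5699.7 CPM) had nearly the same members' sum, 1392 and 1398 CPM. Feeders were treated with mitomycin, which stops division, and the part of fibroblast RNA in the members' lower levels in the cultures was not tested.

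Between 2 or 3 and 10 passages in 2iL few members passed the test: 1 of 47 was higher at d16+10p (4.75% of all genes) and 1 lower (4.61%), with a median of -0.03 against -0.00 for all genes, and 6 members had an unadjusted p under 0.05. DESeq2 called 1 higher and 1 lower and limma voom 1 and 2. Tk1 was 41.1, 41.1, 64.97 and 48.5 CPM at d16+2p and d16+3p and 69.00 to 108 (median 89.3) at d16+10p. All 7 values at d16+10p were above the 4 earlier ones. It changed by 0.88 ± 0.23 (edgeR adjusted p = 0.0183), and the call was lost without AICAR d16+2p (0.81), AICAR+LIF d16+2p (0.81) and AICAR+LIF d16+3p (0.87). Orc5, a core subunit of the origin recognition complex, was 111, 114, 120.1 and 115 CPM against 72.7 to 107 (median 77.2). All 7 values at d16+10p were below the 4 earlier ones. It changed by -0.44 ± 0.13 (edgeR adjusted p = 0.0407), and the call was lost without AICAR d16+2p (-0.46), AICAR+LIF d16+2p (-0.45), AICAR d16+3p (-0.42), AICAR+LIF d16+3p (-0.45), AICAR d16+10p (-0.42), AICAR+LIF d16+10p (-0.41), A769662 d16+10p (-0.44), AICAR d16+10p (129/MSM) (-0.41) and AICAR+LIF d16+10p (129/MSM) (-0.42). Orc1, whose 4 values at d16+2p and d16+3p were all above the 7 at d16+10p, had an estimate of -0.55 ± 0.23 that did not pass the test (edgeR adjusted p = 0.137), but passed with limma voom (adjusted p = 0.0429) and with these 2 groups fitted alone (edgeR adjusted p = 0.00324). The sign of the members' median turned with the scaling, to 0.01 without normalization factors.

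The naive group had 1 library and no test, so its values were set against the range of the 7 d16+10p libraries. The naive library lay within that range for 39 of the 47 members, below it for 3 and above it for 5, where 11.0% of all genes kept by the filter were below and 14.9% above. Above were Orc6 (138.4 CPM against 73.5 to 137.6), Cdt1 (251 CPM against 125 to 241), Mcm5 (583 CPM against 396 to 558), Pold2 (107 CPM against 67.1 to 97.2) and Rpa3 (33.5 CPM against 20.8 to 29.8). Below were Pold1 (141 CPM against 143 to 191), Rpa2 (89.4 CPM against 89.5 to 115) and Fen1 (52.1 CPM against 59.2 to 79.5). These 8 differences have no replicate check. With only the 5 Oct4GIP libraries as the range, 10 members were below and 11 above (18.5% and 23.4% of all genes kept). Of the 22 G2 and mitosis genes the naive library was below the d16+10p range in 11 and within it in 11.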

How the data were processed

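RNA of 22 cultures was sequenced as stranded mRNA libraries. The authors aligned single reads with Bowtie2 2.2.5, as the submitters' processing notes name it, to the Ensembl mouse cDNA and non-coding RNA of build GRCm38, and deposited whole-number counts per gene, which were used as they stand. Every table column was matched to a sample by its title. Counts were scaled by TMM factors and tested with edgeR 4.0.16 (glmQLFit and glmQLFTest, R 4.3.3), after filterByExpr by group, with Benjamini-Hochberg adjustment over all genes tested. Groups were naive, primed, d16+2p with d16+3p, d16+10p, and cultures at d8 and d16. The 8 cultures were fitted alone for AICAR (with the day as a term) and for the day (with the treatment as a term). DESeq2 1.42.0, limma voom 3.58.1, other scalings, no filter, thinned counts, subsets of libraries, leaving out each library in turn and, added after seeing the data, a term for the line were the alternatives. The fits were also run on simulated counts, from which no result is given here.

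The members and the lists (other replication genes, E2F and pocket protein genes, G2 and mitosis genes, and markers of fibroblasts, naive, primed and both pluripotent states) were chosen with earlier results of these data known. Given library by library were, in each of 8 roles, the member with the highest mean level and the one with the largest change between cultures and d16+10p, with Gmnn, Rrm2 and Rrm2b. Further genes were named for the largest changes among those that passed, up to 3 members and 2 genes of another list per direction, and Mki67; a few others in role counts or beside a limit were named after their values were seen. Promoter windows came from RefSeq (GRCm38.p6).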

Additional observations from a re-analysis of the deposited data

Results flagged for a closer look

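In 6 of 132 sets of values, each a gene or a summed role in the libraries of 1 group, a single library stood apart from the rest of its group by Dixon's test at the 95% level; chance alone gives about 1 set in 20, so the 6 are no more than chance would give. Pole, the leading strand polymerase gene, was 225.9 CPM in AICAR+LIF d16+3p, where the d16+2p and d16+3p libraries started at 184.1 with a median of 187.1. It was 24.97 CPM in Basal d8, below a d8 median of 49.17. The helicase gene Mcm2 was 680.7 CPM in AICAR d16+10p, above a d16+10p median of 500.3. The origin recognition gene Orc2 was 52.07 CPM in AICAR d8, where the d8 median was 31.98. Cdt1, the licensing factor gene, was 59.3 CPM in 2iL d8 against a median of 39.13. The 5 genes of RPA and the lagging strand summed to 253.1 CPM in AICAR d16, against a d16 median of 199.0. Whether any of these is more than chance was not tested.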

How the results depend on the processing

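A turn of sign was counted only where the main or the other value passed, and other turns are among the values that kept their side. Of the values for single genes under other settings, 3364 kept their side of the threshold, 296 no longer passed, 34 newly passed and 3 turned their sign. Those 3 were E2f5 (0.74) in d16+10p against primed cells and Pole (0.295) in cultures against primed cells, both with thinned counts, and Mad2l1 in d16+10p against primed cells, which ran from -2.49 to 0.33 as single libraries were left out. Of the members' counts and medians, 321 stayed close to their value and 66 moved.

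With every library thinned to the smallest total, 4 members were higher in d16+10p than in primed cells (389 of 14607 genes). In cultures against primed cells 3 were lower then (413 genes), with a median of -0.72. Between passages 0 were higher and 0 lower (25 and 21 genes), with AICAR 0 were higher (4 of 8908 genes), and from d8 to d16 0 were higher and 0 lower (89 and 13 genes), with a median of -0.84; 38 members were tested in these last 2. Thinning leaves fewer counts to test; the cause of the other moves was not tested. With Oct4GIP libraries alone, 1 member was lower in d16+10p than in primed cells at a median of 1.21, 0 were lower between passages, and the naive library was below the 5 Oct4GIP d16+10p libraries in 10 members and above them in 11. Lower between passages were 2 with limma voom (1074 of 18739 genes), 0 without normalization factors (758), 0 without the filter (879 of 34489) and 4 with these groups fitted alone (1394 of 13462). For AICAR, 1 was lower without the filter, and 0 were higher without the 2 smallest libraries (0 of all genes), 0 without the day term (10 genes), 8 with Basal (776 genes) and 0 with 2iL (88 genes) as the only control. From d8 to d16, 0 were higher without normalization factors, without the 2 smallest libraries or without the treatment term, and 9 lower without that term (948 genes). Without normalization factors the naive library was below the d16+10p range in 1 member.

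As single libraries were left out, members higher in d16+10p than in primed cells numbered 16 to 33 and lower 0 to 1, with a median of 0.72 to 1.18. In cultures against primed cells 0 to 1 were higher and 23 to 36 lower. Between passages 0 to 1 were higher and 0 to 1 lower (471 to 921 and 465 to 926 of all genes). With AICAR 0 to 5 were higher and 0 to 1 lower (68 to 1146 and 177 to 1508 of all genes). From d8 to d16 0 were higher each time and 6 to 14 lower (847 to 1756 and 301 to 944 of all genes). Where the primed group was left with 1 library, that library was taken to vary like the other groups. The labels give no replicate numbers shared between groups. The treatment term pairs the 2 days of the cultures, so leaving out either day of a treatment takes both out of the day estimate. A term for the line (129/MSM or not), chosen after seeing the data, left 33 members higher in d16+10p than in primed cells (3177 of 18739 genes) and 29 lower in cultures than in primed cells (3308 genes). With it Rrm2 passed in d16+10p against primed cells (0.93) and no longer in cultures against primed cells (-0.48), Kif20a (0.84) no longer passed in d16+10p against primed cells, and Orc5 (-0.41) no longer between passages, where 0 members were lower.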
